A study of Mus musculus with 8 samples.

Results

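Satellite cells, the resident stem cells of skeletal muscle, lie between the muscle fibre membrane and its basement membrane and remain out of the cell cycle until the muscle is damaged. They are recognised by the transcription factor Pax7, and their resting state depends on cues from the fibre and the surrounding matrix, which they read through surface receptors. Notch signalling and the calcitonin receptor hold the resting state, and Sprouty proteins damp the fibroblast growth factor signals that would end it.

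The 9 genes described here are the satellite cell genes Pax7, Pax3, Calcr, Fgfr4, Chodl, Spry1, Vcam1, Sdc4 and Megf10, found by symbol among the 22880 Ensembl gene IDs of the count files. All 9 were present, and 8 of them, all but Pax3, passed the filter on low counts that left 14001 genes tested. Whole soleus, a hindlimb muscle rich in slow fibres, was taken from 8 male mice on a C57BL/6 background (C57BL/6J in the study's methods) at 2 months of age. There were 4 controls (Dnm2 +/+) and 4 mice heterozygous for the K562E point mutation in dynamin 2 (Dnm2 +/K562E), a large GTPase that severs membrane necks in endocytosis and is mutated in neuropathy and in a congenital myopathy. The mutation sits in the endogenous Dnm2 gene of the whole animal, so every cell type in the muscle carries it, satellite cells included. Each library came from a separate mouse, and mice are numbered as in their sample titles.

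The libraries held 33407430 to 48832814 counted reads, and the trimmed mean of M-values (TMM) factors that scale them were 0.915 to 0.959 for control libraries and 1.04 to 1.10 for mutant libraries. Levels are given as normalized CPM, the count of a gene scaled to a fixed library size with those factors. Dnm2 itself stood at 66.3 CPM ± 4.74 (SD, n = 4) in controls and 73.4 ± 2.43 (n = 4) in mutants, a log2 fold change of 0.15 with an adjusted p of 0.0909 by edgeR's quasi-likelihood test, and the heterozygous point mutation cannot be read from these counts. All 6 markers of slow fibres were present in every mouse and 2 of them, Tnnc1 and Myl2, were called lower by the rule given next, with summed levels of 16430 to 19320 CPM in controls and 10730 to 13350 CPM in mutants. In such bulk tissue, fewer satellite cells and less RNA per satellite cell cannot be told apart.

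A gene was called changed at a Benjamini-Hochberg adjusted p under 0.05 in edgeR's quasi-likelihood test when its log2 fold change also reached 0.58 in size. By that rule Pax7, Calcr and Fgfr4 fell in the mutant soleus, Chodl rose, and Vcam1, Sdc4, Spry1 and Megf10 were not called. That is 1 of 8 tested genes higher and 3 of 8 lower, beside 12.9% higher and 7.85% lower among all 14001 genes. The median log2 fold change of the 8 was -0.34, against 0.01 over all genes tested. The mice of the 2 genotypes did not overlap for the same 4 genes that were called, which is 4 of 8 beside 41.2% of all genes tested.

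**Figure D1:**
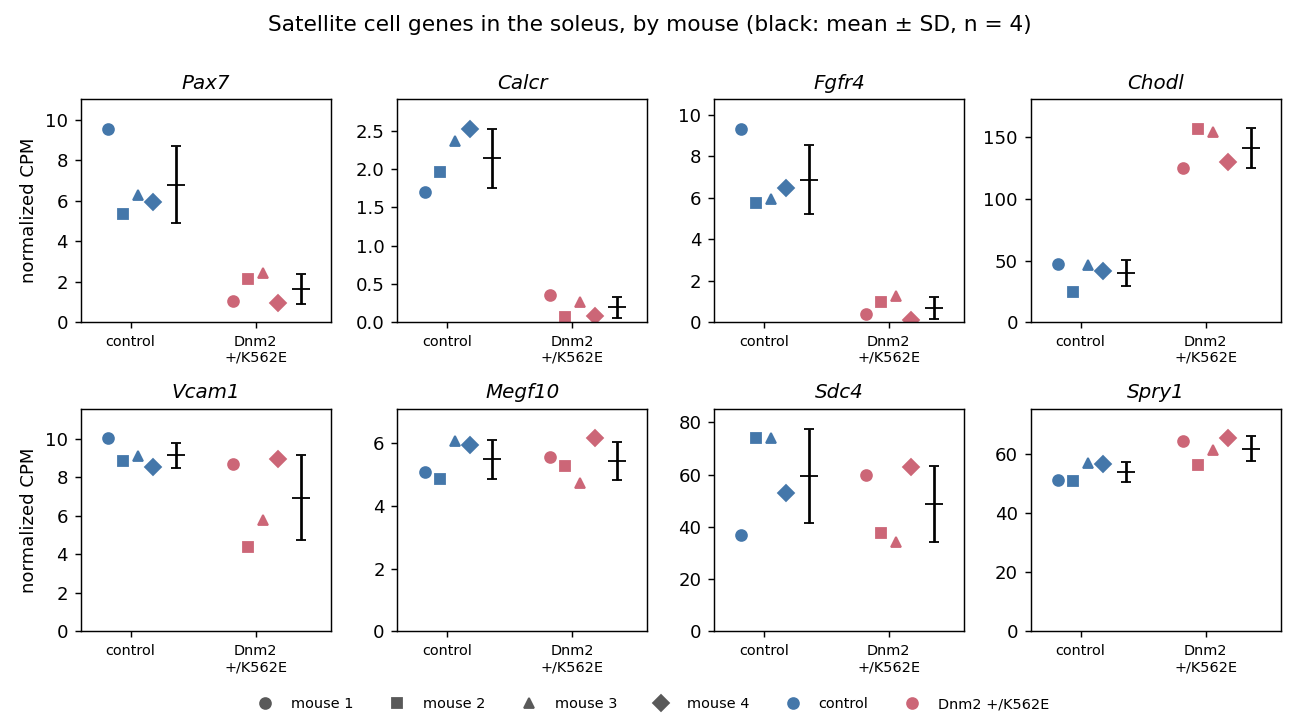
Normalized CPM of the 8 tested genes in each of the 4 control (blue) and 4 Dnm2 +/K562E (red) soleus muscles, with the vertical axis starting at 0, the marker shape giving the mouse number and the black bars the mean ± SD (n = 4). All 4 mutants lie below all 4 controls for Pax7, Calcr and Fgfr4 and above them for Chodl, and the groups overlap in the lower 4 panels.

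Windows of sequence just upstream of the annotated starts are shown for the called genes, because these are the ones whose transcripts differed between genotypes. They come from RefSeq on GRCm38.p6, are read 5′ to 3′ on the gene's own strand, and hold only bases outside annotated exons. Capitals mark TGGGAA, the core letters bound by RBPJ, the DNA-binding partner of Notch. Calcr has a start on each of 2 first exons, and its windows are chr6:3764715-3764963 and chr6:3763631-3763873, both on the minus strand. The windows of Fgfr4, chr13:55152568-55152639, and of Chodl, chr16:78930698-78930947, are on the plus strand.
Calcr, outer start: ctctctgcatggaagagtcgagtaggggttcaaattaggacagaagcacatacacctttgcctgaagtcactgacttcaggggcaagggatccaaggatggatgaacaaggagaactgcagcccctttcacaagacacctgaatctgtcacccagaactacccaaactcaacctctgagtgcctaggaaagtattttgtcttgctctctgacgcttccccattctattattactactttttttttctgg
Calcr, inner start: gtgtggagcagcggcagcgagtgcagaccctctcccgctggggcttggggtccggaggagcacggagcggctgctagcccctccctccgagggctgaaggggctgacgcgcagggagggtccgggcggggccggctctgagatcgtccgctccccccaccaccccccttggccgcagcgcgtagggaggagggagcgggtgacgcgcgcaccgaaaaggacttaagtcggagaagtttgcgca
Fgfr4: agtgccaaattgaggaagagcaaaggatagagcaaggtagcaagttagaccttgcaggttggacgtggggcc
Chodl: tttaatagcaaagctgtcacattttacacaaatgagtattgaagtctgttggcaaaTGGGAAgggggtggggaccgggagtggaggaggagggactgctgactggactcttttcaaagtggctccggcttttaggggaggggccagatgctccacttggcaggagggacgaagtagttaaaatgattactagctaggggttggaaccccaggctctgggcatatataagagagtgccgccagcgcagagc

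The 2 Calcr windows differ in base composition, with 46.2% G and C at the outer start and 71.2% at the inner one. Searched on both strands, TGGGAA occurred 1 time in the Chodl window and was not found in the windows of Calcr, Fgfr4, Spry1 or Sdc4, and 21.6% of all 32817 annotated windows of 250 bases hold it. The Fgfr4 window has only 72 bases, so these shares do not apply to it. The myogenic E-box CAGCTG, in 13% of all windows, and the MEF3 motif TCAGGTT, in 3.5%, were not found in any of them. The upstream window of Pax7 begins at an exonic base, so no bases before an exon were left to show. Pax3, Vcam1 and Megf10 were not matched.

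Pax7 (chr4:139737062-139833528, minus strand) encodes the paired-box transcription factor that defines satellite cells and is needed to keep them in adult muscle. Its level was 9.56, 5.35, 6.29 and 5.95 CPM in control mice 1 to 4 and 1.06, 2.14, 2.43 and 0.946 CPM in mutant mice 1 to 4, from 180 to 321 reads per control library and 35 to 102 per mutant library. The highest mutant was below the lowest control. Pax7 fell from a mean of 6.79 ± 1.89 CPM (SD, n = 4) to 1.64 ± 0.752 (n = 4), a log2 fold change of -2.03 (SE 0.31) and a 4.13-fold lower mean, with an adjusted p of 3.67e-04 in edgeR's quasi-likelihood test.

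Pax3 (chr1:78101267-78197134, minus strand), the close relative of Pax7 that satellite cells of only some muscles express, was not detected in 7 of the 8 libraries. The third mutant held 3 reads. A count of 0 allows up to 3 reads per library, which is 0.0614 to 0.0898 CPM across the 8 libraries and covers counting error only. Pax3 was not tested, and no difference was detectable at this depth.

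Calcr (chr6:3685680-3764714, minus strand), the calcitonin receptor, is a G protein-coupled receptor that marks resting satellite cells and is lost when they activate. Control mice 1 to 4 had 57, 66, 106 and 86 reads, or 1.70, 1.96, 2.37 and 2.53 CPM, and mutant mice 1 to 4 had 13, 3, 11 and 3 reads, or 0.353, 0.0697, 0.262 and 0.0811 CPM. Every mutant was below every control, and the counts of 3 put mutants 2 and 4 at the limit that a count of 0 allows. The mean fell from 2.14 ± 0.381 CPM (n = 4) to 0.192 ± 0.139 (n = 4), 11.2-fold, with a log2 fold change of -3.47 (SE 0.43) and an adjusted p of 8.96e-05 by edgeR's quasi-likelihood test.

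Fgfr4 (chr13:55152640-55168759, plus strand), a receptor for fibroblast growth factors carried by satellite cells and myoblasts, measured 9.33, 5.76, 5.91 and 6.48 CPM in control mice 1 to 4. Mutant mice 1 to 4 measured 0.380, 0.953, 1.26 and 0.108 CPM, from 14, 41, 53 and 4 reads. The groups did not overlap, and the mutants spread 11.7-fold between lowest and highest, the widest spread of the tested 8 genes in either genotype. Fgfr4 fell from 6.87 ± 1.67 CPM (n = 4) to 0.676 ± 0.527 (n = 4), 10.2-fold, with a log2 fold change of -3.31 (SE 0.46) and an adjusted p of 1.95e-04 by edgeR's quasi-likelihood test.

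Chodl (chr16:78930948-78951733, plus strand) encodes chondrolectin, a membrane protein with a C-type lectin domain whose transcript is enriched in resting satellite cells and is also made by motor neurons. Control mice 1 to 4 had 47.5, 24.6, 46.5 and 41.5 CPM, and mutant mice 1 to 4 had 125, 157, 154 and 130 CPM. The lowest mutant was above the highest control, so that among the called genes Chodl moved opposite to Pax7, Calcr and Fgfr4. Its mean rose from 40.0 ± 10.6 CPM (n = 4) to 142 ± 16.3 (n = 4), 3.54-fold, with a log2 fold change of 1.82 (SE 0.18) and an adjusted p of 2.02e-05 by edgeR's quasi-likelihood test. Of the 31-base stretches of Chodl transcripts, 2.80% also occur in other genes, against 0% for Pax7, Calcr and Fgfr4.

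The other surface genes were not called. Vcam1 (chr3), an immunoglobulin-family adhesion molecule of satellite cells and of inflamed endothelium, measured 10.04, 8.85, 9.09 and 8.54 CPM in controls and 8.66, 4.39, 5.80 and 8.92 CPM in mutants. Mutants 1 and 4 lay among the controls and mutants 2 and 3 below all of them. The log2 fold change was -0.40 (SE 0.20), with an adjusted p of 0.13 by edgeR's quasi-likelihood test.

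Sdc4 (chr2), syndecan 4, a heparan sulphate proteoglycan that presents growth factors to their receptors, measured 37.0, 74.1, 74.0 and 52.9 CPM in controls and 59.8, 37.8, 34.4 and 62.9 CPM in mutants. The genotypes overlapped over most of their range, with a log2 fold change of -0.29 (SE 0.24) and an adjusted p of 0.363 by edgeR's quasi-likelihood test. Megf10 (chr18), a receptor with epidermal growth factor repeats that acts in satellite cell adhesion and proliferation, measured 4.84 to 6.07 CPM in controls and 4.72 to 6.16 CPM in mutants. Its means were 5.47 and 5.43 CPM, with a log2 fold change of -0.015 (SE 0.13) and an adjusted p of 0.935 by edgeR's quasi-likelihood test.

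Spry1 (chr3), Sprouty 1, an inhibitor of receptor tyrosine kinase signalling that satellite cells need to return to rest, measured 51.3, 50.9, 57.0 and 56.5 CPM in controls and 64.3, 56.3, 61.2 and 65.4 CPM in mutants. Mutant 2 fell within the control range and the other mutants lay above it. The log2 fold change of 0.20 (SE 0.07) was under the fold threshold, with an adjusted p of 0.041 by edgeR's quasi-likelihood test. That adjusted p ran from 8.18e-04 to 0.122 over the 16 other fits, edgeR's exact test and DESeq2 included. An antisense gene, Gm42922, covers 24.4% of the exon length of Spry1 and was not itself counted, so that reads of the 2 genes cannot be told apart if strand was not used in counting.

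Within the mutants, the order of the mice differed between genes. Mutants 2 and 3 had the higher Pax7 and Fgfr4 and the lower Vcam1 and Sdc4, while mutants 1 and 4 had the lower Pax7 and Fgfr4 and the higher Vcam1, Sdc4 and Spry1. Calcr followed neither order, being highest in mutants 1 and 3. Among controls, mouse 1 had the highest Pax7 and Fgfr4 and the lowest Calcr and Sdc4.

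Levels can be set side by side between genes only per exon length, as RPKM, the normalized CPM divided by the exon length in kilobases. On that scale the controls ran from Sdc4 at 23.4 ± 7.08 (SD, n = 4) and Spry1 at 18.6 ± 1.13, through Chodl at 7.28 ± 1.93, to Fgfr4 at 1.94 ± 0.470 and Pax7 at 1.16 ± 0.323. Vcam1 followed at 1.03 ± 0.0730, Megf10 at 0.709 ± 0.0792 and Calcr at 0.547 ± 0.0974. The control mice overlapped between Sdc4 and Spry1, Fgfr4 and Pax7, Pax7 and Vcam1, and Megf10 and Calcr, and the other neighbours in that order were separate.

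In the mutants Chodl had the highest mean, 25.8 ± 2.97 RPKM (n = 4), followed by Spry1 at 21.3 ± 1.41 and Sdc4 at 19.1 ± 5.77. Chodl was above Spry1 in every mutant, but its range overlapped with that of Sdc4, which was the higher of the pair in mutants 1 and 4. Vcam1 at 0.783 ± 0.249 and Megf10 at 0.703 ± 0.0774 lay above Pax7 at 0.281 ± 0.128, Fgfr4 at 0.191 ± 0.149 and Calcr at 0.0490 ± 0.0356. Fgfr4 overlapped with both Pax7 above it and Calcr below it. Pax7 lay below Megf10 in every mutant and above it in every control.

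**Figure D2:**
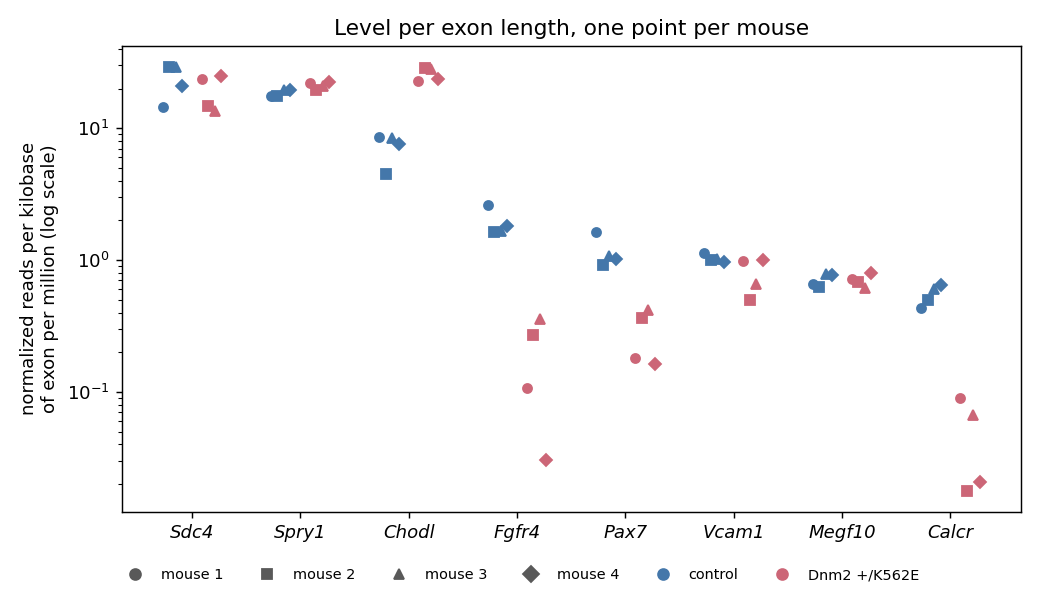
RPKM, on a log axis, for the 8 tested genes in the order of their control means, with 1 point per mouse (controls blue, Dnm2 +/K562E red, marker shape giving the mouse number). Chodl moves from 7.28 in controls to 25.8 in mutants, the highest mutant mean although Sdc4 is above it in mutants 1 and 4, and Fgfr4, Pax7 and Calcr move down to 0.191, 0.281 and 0.0490.

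Counts of each gene were also divided by the Pax7 count of the same library, a ratio that library scaling does not touch. Each of the 7 ratios was compared by an exact two-sided permutation test of 4 mice against 4, whose smallest possible p is 0.0286. Controls had 0.975, 1.08, 0.940 and 1.09 Fgfr4 reads for each Pax7 read, and mutants had 0.359, 0.446, 0.520 and 0.114. Fgfr4 reads were near the number of Pax7 reads in every control and below it in every mutant, with a log2 difference of -1.66 (exact permutation p = 0.0286). Without mutant 4, which held 4 Fgfr4 reads, the difference was -1.21. Both genes were already called lower, and this ratio compares only the sizes of their falls. Read counts are not adjusted for exon length, so a ratio near 1 does not mean equal levels.

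The Calcr ratio was 0.178, 0.367, 0.377 and 0.426 in controls and 0.333, 0.0326, 0.108 and 0.0857 in mutants. Mutant 1 lay among the controls and the other mutants lay below, with a log2 difference of -1.56 (exact permutation p = 0.0571). The Chodl ratio went from 4.59 to 7.38 reads per Pax7 read in controls to 63.3 to 137 in mutants, a log2 difference of 3.98 (exact permutation p = 0.0286). Spry1, Megf10, Sdc4 and Vcam1 had log2 differences of 2.32, 2.11, 1.84 and 1.67 in reads per Pax7 read, each without overlap and each at the smallest exact permutation p of 0.0286. These 7 ratios share the Pax7 count, and their p-values are not adjusted. For Spry1, Megf10, Sdc4 and Vcam1, which were not called themselves, the ratios restate the fall of Pax7 and are no separate result. The Chodl ratio combines the rise of Chodl with the fall of Pax7, both already called, and is no separate result either.

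**Figure D3:**
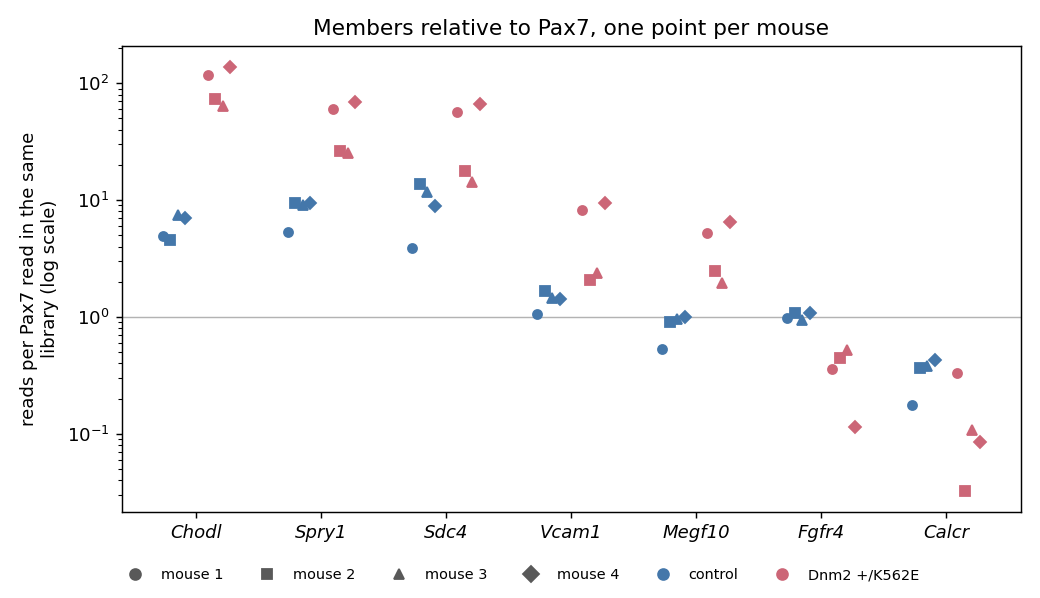
Reads of each gene per Pax7 read of the same library, on a log axis, with 1 point per mouse (controls blue, Dnm2 +/K562E red, marker shape giving the mouse number) and a grey line at 1. The line marks equal read counts, not equal levels per exon length. Fgfr4 sits near 1 in controls and at 0.114 to 0.520 in mutants, Calcr overlaps through mutant 1 at 0.333, and the other 5 genes are higher in every mutant than in every control.

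Over the 8 mice, the 5 tested genes whose centred log2 CPM profile was closest to that of Pax7, by root mean square difference, were Nat1 at 0.239, Ramp1 at 0.311, Myl3 at 0.311, Mylk4 at 0.339 and Slc38a3 at 0.356. Nat1 was scarce, at 0.659 ± 0.315 CPM (n = 4) in controls, and Myl3, a myosin light chain of slow fibres, was abundant, at 3357 ± 280.3 CPM (n = 4). Fgfr4 ranked 1148 and Calcr 2272 of 14000 by the same measure, and Chodl ranked 13721. This measure grows with a difference in the size of the genotype change as well as in the order of the mice, and the mutants ranked in the same order for Fgfr4 as for Pax7.

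Among 11 other satellite cell surface and niche genes, 3 were called higher and none lower by edgeR's quasi-likelihood test. Over all 14001 genes tested, 12.9% were called higher and 7.85% lower, shares to set beside this and the other list counts. Ncam1, a neural cell adhesion molecule of satellite cells and of denervated or regenerating fibres, rose from 18.5 ± 0.735 to 61.8 ± 7.52 CPM (n = 4 each), a log2 fold change of 1.74. Cdh2 (N-cadherin) rose by 0.68 and Cd34, a sialomucin also present on endothelium and stromal cells, by 0.60 on the log2 scale. Under the fold threshold, Itga7 and Itgb1 were above every control in every mutant, at 0.55 and 0.53. Cav1 and Tek were below every control in every mutant, at -0.49 and -0.40, also under the threshold. The list median was 0.08. Cdh15 (M-cadherin), singled out after its values were seen because it joins satellite cells to their fibre, measured 18.3 to 22.8 CPM in controls and 20.6 to 24.2 CPM in mutants and was not called.

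Of 6 ligands and partners of the calcitonin receptor family, 2 rose and 1 fell. Col5a1 and Col5a2, chains of collagen V, a matrix ligand of Calcr on satellite cells, rose by 1.05 and 1.41 on the log2 scale, while Calcr itself fell. Col5a3, another collagen V chain of the list, was not called, with a log2 fold change of 0.11 and overlapping groups. Ramp1, an accessory protein that pairs with receptors of this family, fell from 94.5 ± 2.40 CPM (n = 4) to 25.1 ± 6.39 (n = 4), a log2 fold change of -1.91. Like Pax7, Ramp1 was lowest in mutants 1 and 4. Ramp1 was already among the genes picked for a profile close to that of Pax7, so this order is no separate likeness.

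Of 7 Notch receptors and targets, Notch2 was the only gene called, with a log2 fold change of 0.61. The target Hey1 and the receptors Notch1 and Notch3 had log2 fold changes of -0.54, -0.49 and -0.50, under the fold threshold. Rbpj, Hes1 and Heyl went the other way, also under it, at 0.285, 0.069 and 0.134. The list median was 0.069. Of 14 genes of the fibroblast growth factor pathway other than Fgfr4 and Spry1, 3 rose and 1 fell. The transcription factors Etv5 and Etv4, which the pathway induces, rose by 1.13 and 0.65 on the log2 scale, and Spred1, an inhibitor of it, rose by 0.68. Dusp6, Spry2 and Spry4, from the same list of pathway genes, were not called, at 0.18, 0.42 and 0.31 with overlapping groups. In the same list the muscle ligand Fgf6 fell by 1.12 from 2.39 ± 1.05 CPM in controls, with overlapping groups.

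Of the 3 integrin subunits that form the partners of Vcam1, only Itga4 was called, with a log2 fold change of 0.96. It is a chain of the Vcam1 receptor on leukocytes. Itgb1 was higher in every mutant than in every control but stayed under the fold threshold, at 0.53. Itgb7 overlapped between genotypes, at 0.17. Of 8 genes that restrain the cell cycle, Gas1 rose by 1.08 and Cdkn1c fell by 1.12 on the log2 scale, and antisense genes cover 19.9% and 30.7% of their exon lengths. Among 9 tested genes of activated satellite cells and myoblasts, 2 rose and 1 fell. Myf5, a myogenic factor of satellite cells and early myoblasts, fell from 3.31 ± 0.455 to 0.919 ± 0.126 CPM (n = 4 each), a log2 fold change of -1.85, and Myog, the myogenic factor of differentiation, rose from 6.50 ± 1.46 to 55.8 ± 10.1 CPM, a log2 fold change of 3.10. Mki67, a marker of cycling cells of any type, rose by 0.84 on the log2 scale with overlapping groups. The other 6 genes of the list, Myod1 among them, were not called. Which cells of the muscle carried these changes was not tested.

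**Figure D4:**
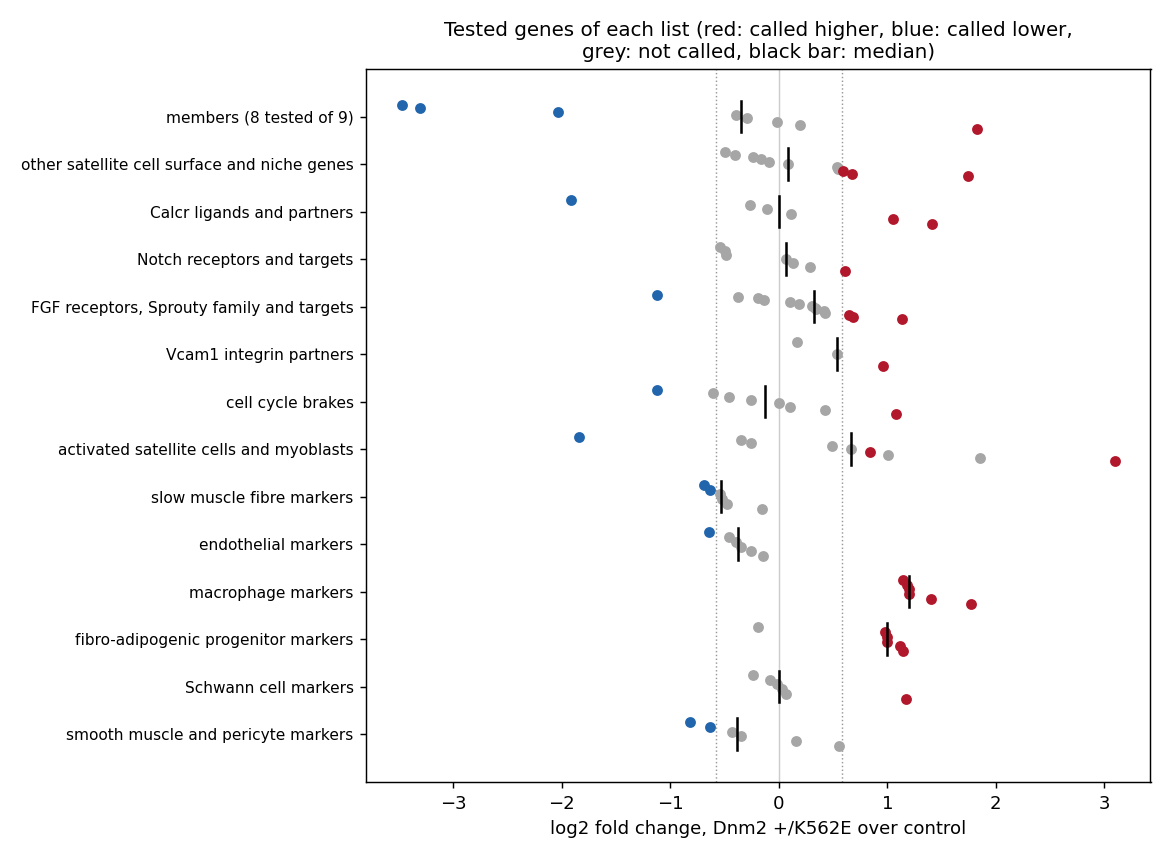
Log2 fold change, Dnm2 +/K562E over control, of every tested gene of each list, with red for genes called higher, blue for called lower, grey for not called, a black bar at the list median and dotted lines at the fold threshold of 0.58 in either direction. Calcr, Fgfr4 and Pax7 lie at -3.47, -3.31 and -2.03, the 3 lowest values plotted, followed by Ramp1 at -1.91 and Myf5 at -1.85, and Chodl lies at 1.82.

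Markers of other cell types were read in the same libraries. All 6 macrophage markers were called higher, with a summed level of 68.1 to 125 CPM in controls and 146 to 246 CPM in mutants, and 5 of 6 markers of fibro-adipogenic progenitors were called higher, with sums of 1943 to 2876 and 3956 to 5084 CPM. Of 6 endothelial markers 1, Kdr, was called lower, with sums of 909.0 to 952 CPM in controls and 649 to 745 CPM in mutants. Smooth muscle and pericyte markers had 2 of 6 called lower, with sums of 1552 to 1714 and 1136 to 1356 CPM, and Schwann cell markers had 1 of 6 called higher, Egr2, with overlapping sums of 162 to 181 and 137 to 175 CPM. No marker of these lists was at 0 in all mice, and the part of these cell types in the levels of Pax7, Calcr, Fgfr4, Chodl and Vcam1 was not tested.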

How the data were processed

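The 2 genotypes were compared on the read counts per gene that the authors deposited, 1 file per mouse. Per the labels' processing notes, tools included Trimmomatic 0.33, STAR 2.5.1b, featureCounts and edgeR 3.14.0, on GRCm38.p5. The labels name a stranded total RNA kit and the study's methods a poly-A kit, and whether counting used strand is not given in the sources used here. 1 mutant library's description spells the mutation differently, and its title and genotype were used.

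Counts were tested with edgeR 4.0.16 in R 4.3.3: TMM factors, filterByExpr, the quasi-likelihood F test on genotype over all 8 mice and Benjamini-Hochberg adjustment over 14001 genes, with thresholds of 0.05 and 0.58. The test was checked on simulated data. Within-group libraries differed beyond sampling noise. Of 22880 gene IDs, 22570 matched GENCODE M21, which gave symbols, coordinates and exon lengths. Ratios to Pax7 used counts plus 0.5 in the test.

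Named genes are Dnm2, the 9 members, up to 4 called genes per list with the smallest p, genes at the ends of ranges, and the 5 closest to Pax7. Some uncalled genes of the lists are named beside the called ones. The members and lists were chosen with earlier results of these data known. Alternatives were other normalizations, filters, tests (edgeR's exact test, DESeq2 1.42.0), a replicate block and leaving out each mouse.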

Additional observations from a re-analysis of the deposited data

How the results depend on the processing

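Pax7, Calcr, Fgfr4 and Chodl kept their direction and their call under every setting that gave a value: log2 fold changes ran from -2.28 to -1.82 for Pax7, -3.92 to -3.19 for Calcr, -3.79 to -2.97 for Fgfr4 and 1.65 to 2.04 for Chodl. Asking for 10 counts in every mouse removed Calcr and Fgfr4 by its construction and left 1 gene lower. Without the fold threshold Spry1 joined Chodl, making 2 genes higher, and all genes gave 3103 higher and 3036 lower. Library size alone moved the median of all genes to 0.22 and gave 2865 higher and 564 lower among all genes. Megf10, never called, changed sign with library size alone (0.195), and without a mouse its values ran from -0.082 to 0.046, positive without mutant 3 (0.046), control 3 (0.038) or control 4 (0.014). Leaving out 1 mouse at a time gave 1588 to 1970 genes higher and 1026 to 1208 lower. Same-numbered mice did not deviate together on average (mean correlation -0.114 by title and -0.0302 by description number). So few pairs cannot show that these mice share nothing but a number. With the replicate block by title number the members stayed at 1 higher and 3 lower, with Pax7 at -2.08, and all genes gave 1637 higher and 1036 lower. Calcr per Pax7 read was -2.10 without mutant 1 and -1.04 without mutant 2. Depth limits Pax3 and the mutants' Calcr and Fgfr4, at 3 to 53 reads.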
